A study of Vulpes vulpes with 48 samples.

Results

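This report describes 200 genes whose RNA made up a larger share of the counts in 5 prefrontal cortex libraries of tame silver foxes (Vulpes vulpes) than in the 7 other tame cortex libraries. The members were chosen by measured values in these same libraries. Of 12808 genes in the cortex table, 9624 had a mean of 10 CPM (counts per 1000000 counts of a library) or more in aggressive cortex. Among those, the members are the 200 with the largest positive difference in mean log2(CPM + 1) between 5 tame libraries (ID191, ID190, ID187, ID186 and ID182) and the other 7. All 200 are also listed in the forebrain table of 13089 genes.

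The animals were males of 1.5 years, from 2 farm-bred lines, one of them selected over generations to be tame and the other to be aggressive towards people. Poly(A) RNA was sequenced from the right side of the brain, in 12 libraries of each line for prefrontal cortex and in 10 tame and 12 aggressive ones for basal forebrain, and ID488 and ID490 of tame forebrain were not analysed here. The labels name no treatment, and they do not say whether a cortex and a forebrain library came from the same fox. Each library holds all cell types of a dissected piece, so fewer cells of a type and less RNA per cell cannot be told apart.

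The prefrontal cortex is the part of the frontal lobe that serves planning, decisions and the control of emotional responses. The basal forebrain lies beneath it and holds the cholinergic neurons that project to the cortex, close to striatal and septal cells. Selection of farm foxes on their reaction to people has been used as an experimental model of domestication. A CPM value is a share of a fixed total, so when one group of genes takes up less of a library, the other genes take up more of it even with the same number of RNA molecules.

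The files give dog Ensembl identifiers and do not pair them with gene names, and 0 of the 200 matched the fox RefSeq table (VulVul3). The members are therefore described by identifier, without function, position or sequence, and neither the region labels nor the mix of cell types could be checked against marker genes. Library totals ran from 8.65 to 15.5 M (M, 1000000 counts) in the 5 libraries and from 7.09 to 17.2 M in the 7 others, so the ranges overlapped. In aggressive cortex they ran from 6.23 to 16.1 M, in tame forebrain from 7.25 to 12.6 M and in aggressive forebrain from 6.25 to 13.6 M. The lowest deposited count of a member in any cortex library was 4.52. Nothing in the labels says whether libraries of a group were separate preparations of separate foxes beyond their identifiers, so p-values measure the spread between these libraries.

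The differences that chose the members lay in a narrow band. They ran from 0.80 to 1.59 with a median of 0.83, a 1.78-fold higher CPM + 1, and 9 of the 200 were over 1. The 9624 genes as a whole were spread much more widely on the negative side. Their median difference was -0.15, the lower quartile was -1.19, the upper quartile 0.42 and the lowest value -4.88, and 44.7% of them were above 0. The fullest bin of 0.1 ran from 0.5 to 0.6 and held 670 genes. Another 1030 genes lay from 0.6 to 0.8, and above that the distribution ended in the members. The last 2 members stood at 0.79806 and 0.79789 and the next 2 genes at 0.79759 and 0.79757, with 166 genes within 0.05 under the last member. The limit therefore fell inside a dense edge and not at a gap.

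**Figure D1:**
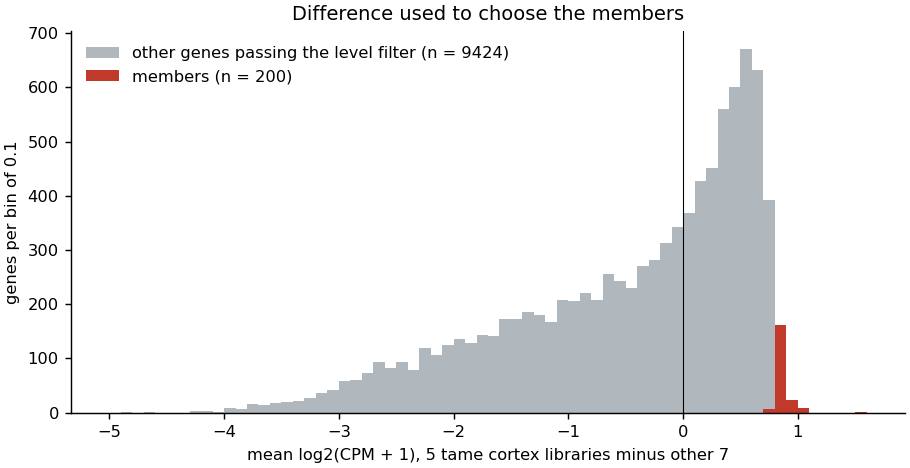
Histogram of the difference in mean log2(CPM + 1) between the 5 tame cortex libraries and the other 7 for genes with 10 CPM or more in aggressive cortex (x axis, log2 units, bins of 0.1; y axis, genes per bin). The 200 members (red) form the right edge, from 0.80 to 1.59. The fullest bin runs from 0.5 to 0.6, and the left tail reaches -4.88.

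The shares of counts moved together with this shape. The 5321 genes with a difference under 0 held from 46.3% to 50.6% of the counts in the 7 other tame libraries and from 44.6% to 50.7% in aggressive cortex. In the 5 libraries they held from 15.3% to 35.0%. The 4303 genes above 0 moved the other way, with a median of 69.3% in the 5 libraries against 51.0% in the 7 others. Both classes were set by the sign of this same contrast, so the directions were built in and only the sizes are described. How far this change in shares sets the CPM of the members was not tested. TMM scaling (a trimmed mean of log ratios between libraries), which sets library sizes by the bulk of genes, moved the median difference of all 9624 genes up by 0.21, to 0.064. It moved the median of the members up by 0.22, to 1.05. TMM rescales each library by a single factor for all genes, so a nearly equal shift follows from the method. It says nothing on the part played by the change in shares.

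The members held from 3.97% to 4.82% of the counts in the 7 other tame libraries and from 4.07% to 5.26% in aggressive cortex. In the 5 libraries they held 10.997% in ID187, 10.2% in ID191, 7.35% in ID182, 7.03% in ID186 and 6.49% in ID190. No other cortex library reached the lowest of these. The median member, set against its mean in aggressive cortex, stood 1.21 higher in ID187 on the log2(CPM + 1) scale, 1.08 in ID191, 0.65 in ID182, 0.63 in ID186 and 0.45 in ID190. In the 7 other tame libraries the same value ran from -0.24 in ID181 to 0.029 in ID184. The 5 libraries thus formed a gradient, with ID187 and ID191 at its upper end and the other 3 close together.

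The gradient was seen in most members. The rule averaged these same 5 libraries, so the counts in this paragraph describe the selection. They were not made for the other genes passing the level filter. Both ID187 and ID191 were above the other 3 in 175 of the 200 genes. The highest of all 24 cortex libraries was ID187 in 143 members, ID191 in 46, ID182 in 8, ID186 in 2 and aggressive library ID238 in 1. The lowest of the 5 was ID190 in 148 members. Relative to aggressive cortex, 165 members were more than 1 log2 unit higher in ID187 and 141 in ID191, against 21 in ID182, 9 in ID186 and 2 in ID190. In ID187, 90% of members lay between 0.80 and 1.53 above the aggressive mean, and in ID190 between 0.18 and 0.70. Only 7 members were below the aggressive mean in any of the 5 libraries.

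**Figure D2:**
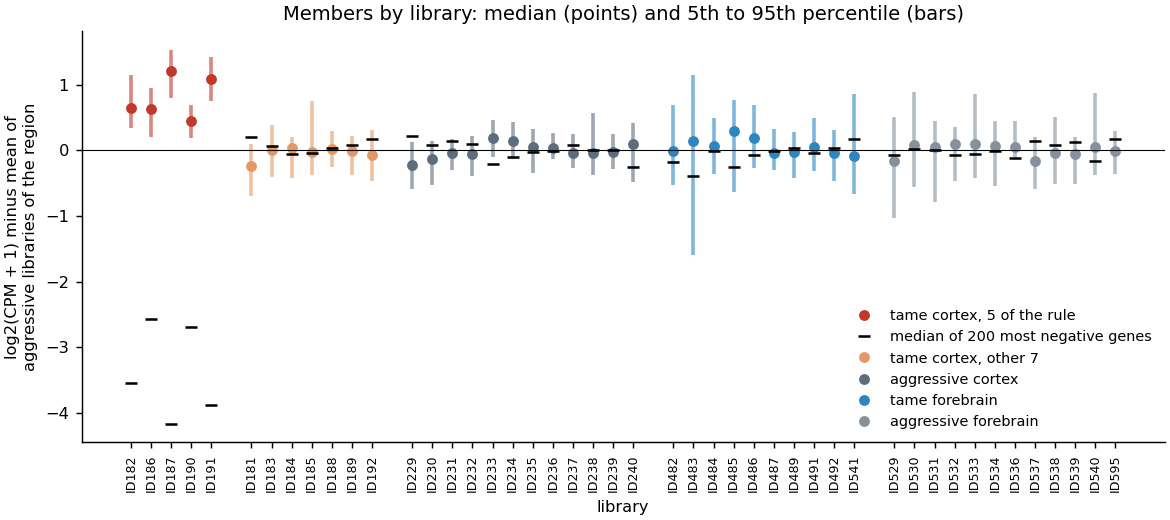
Log2(CPM + 1) of the 200 members in each library minus the mean of the aggressive libraries of the same region (y axis, log2 units; x axis, library), as the median (points) and the 5th to 95th percentile over members (bars), with the median of the 200 most negative genes as black dashes. The 5 libraries of the rule have medians from 0.45 to 1.21, the other cortex libraries from -0.24 to 0.19 and the forebrain libraries from -0.17 to 0.29.

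All 5 libraries were above all 7 other tame libraries in 156 of 200 members. The rule used this contrast, and 21.8% of all genes passing the level filter had the same separation. All 5 were above all 19 other cortex libraries in 121 members, against 16.0% of those genes. On TMM sizes, a setting added after the data were seen, the members numbered 167 and 139. The shares of all genes passing the filter were not counted on TMM sizes. That scaling also raised the median difference of all these genes, so the larger counts are not particular to the members. Library ID181 bore on the lower side of the contrast. It was the lowest of the 7 in 109 members (54.5%), while it was the lowest in 20.6% of all genes passing the level filter. Without ID181 the median difference of the members was 0.81, and 9 members fell by more than 0.1.

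Both tame sets were also compared with aggressive cortex. The rule chose genes high in the 5 and low in the 7, so these values describe the selection and are no separate support. The mean of the 5 was above the aggressive mean in 200 of 200 members, by 0.13 to 1.23 with a median of 0.80, where the median of all genes passing the level filter was -0.16. The mean of the 7 others was above it in 59, with a median difference of -0.041 (all genes passing the filter, 0.0014) and a range from -0.88 to 0.39. Leaving out ID181 gave a median of -0.013 (all genes passing the filter, 0.00087) and 88 members above 0. The 5 libraries also stood apart from the rest in other ways. Between 3 and 160 of the 9624 genes were under 1 CPM in them, with 160 in ID187 and 97 in ID191, against 0 or 1 in the other 19 cortex libraries. Their 100 most abundant genes held from 17.4% to 21.4% of the counts, against 14.6% to 15.5% in the others. The part of these differences in the members' levels was not tested.

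The members were more abundant than the genes they were drawn from. Their median level in aggressive cortex was 89.7 CPM, against 47.9 CPM for all genes passing the filter, and 95 members (47.5%) were over 100 CPM, against 26.0%. The 200 most negative genes had a median of 89.4 CPM, so a high level was common to both ends of the distribution. Levels of members ran from 10.8 to 4970 CPM, and 8 were over 1000 CPM. The uppermost belongs to ENSCAFG00000004958, singled out after its values were seen, which was also the most abundant gene of aggressive cortex. It stood at 4970 ± 384 CPM in aggressive cortex (SD, n = 12), at 5013 ± 370 CPM in the 7 other tame libraries and at 8939 ± 2340 CPM in the 5 (SD, n = 5). Forebrain means were 5096 ± 698 CPM for the tame line (SD, n = 10) and 5191 ± 531.03 CPM for the aggressive line (SD, n = 12), a difference smaller than either SD. Some of its counts are not whole numbers, and its level is uncertain where it shares reads with other genes.

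Uncertain counting was somewhat more common among the members than elsewhere. Fractional counts occurred in 17 members (8.5%), against 4.80% of genes passing the filter. Another 15 (7.5%) had the same counts as another gene in every cortex library, against 4.29%, and all 15 shared them with another member. The level of such genes is uncertain, and each count of members below includes these copies.

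The largest difference of all belonged to ENSCAFG00000007219, a gene with fractional counts. It stood at 134 CPM in ID182, 117 in ID186, 127 in ID187, 92.2 in ID190 and 134 in ID191. In the 7 other tame libraries it stood at 101 CPM in ID184, 95.7 in ID188, 83.5 in ID185, 76.0 in ID192, 47.0 in ID183, 35.3 in ID189 and 0.525 in ID181. The groups overlapped, since ID190 was below ID184 and ID188, and the difference of 1.59 was 0.80 without ID181. Aggressive cortex ran from 35.8 to 123 CPM with a median of 71.2. In the forebrain the gene was near 0 in aggressive libraries ID532 (0.0577 CPM) and ID529 (0.149 CPM), while the other 10 ran from 38.5 to 153 CPM. Cortex libraries ID232 and ID229, with the same last digits, stood at 123 and 122 CPM. Tame forebrain ran from 18.7 to 143 CPM. Near-absence in single libraries thus occurred in tame cortex and in aggressive forebrain, but not in aggressive cortex or tame forebrain.

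ENSCAFG00000011477 had the next largest difference, 1.07, and whole counts. It stood at 929 CPM in ID191, 756 in ID186, 726 in ID187, 662 in ID182 and 501 in ID190. The 7 other tame libraries ran from 285 to 403 CPM with a median of 353, so the sets did not overlap. Aggressive cortex was wider, from 188.9 to 567.8 CPM with a median of 362, and reached above ID190. In the forebrain the gene was far lower, from 39.9 to 130 CPM in tame (median 87.8) and from 17.9 to 115 CPM in aggressive foxes (median 56.7). Every aggressive forebrain library was below every aggressive cortex library.

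**Figure D3:**
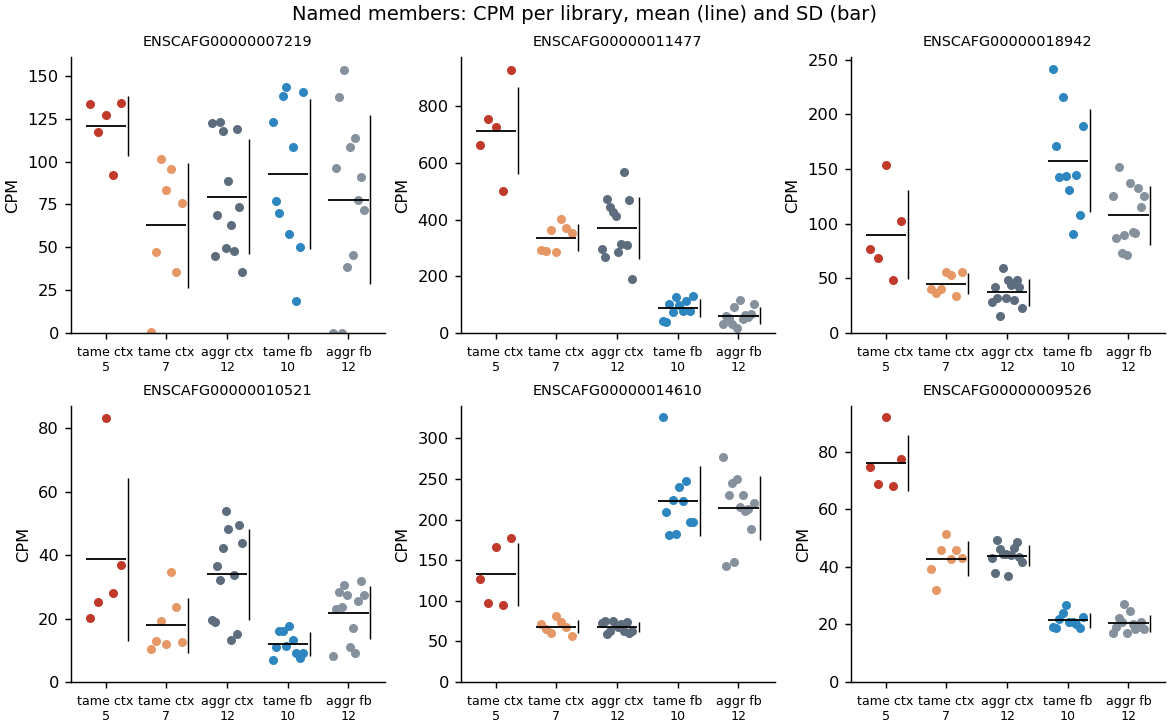
CPM per library (y axis, linear from 0) of 6 members in the 5 and the 7 tame cortex libraries, aggressive cortex, tame forebrain and aggressive forebrain (x axis, with the number of libraries), with the mean (line) and SD (bar). ENSCAFG00000007219 is near 0 in 3 single libraries, ENSCAFG00000011477 and ENSCAFG00000009526 are lower in the forebrain, and ENSCAFG00000014610 is higher there.

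Aggressive cortex libraries entered the rule only through the level filter, and forebrain libraries not at all. Pairwise correlations of log2(CPM + 1) between members over these 12 libraries had a median of 0.332, against 0.0158 for all genes passing the filter and 0.603 for the 200 most negative genes. Over the 12 aggressive forebrain libraries the medians were 0.166, 0.00656 and 0.352. Over the 10 tame forebrain libraries they were 0.167, 0.0142 and 0.580. Without tame library ID485 the last value for members was 0.107. In aggressive cortex, 119 members (59.5%) correlated over 0.5 with the mean of the set, against 19.1% of genes passing the filter with their own mean. In aggressive forebrain 93 members (46.5%) did, against 4.04%. In tame forebrain 97 members (48.5%) did, against 26.3%. The 200 most negative genes had larger shares in each, 92%, 65% and 86%. These are descriptions over few libraries, and the genes share library and depth. Each mean held the gene itself and covered a different number of genes, 200 for the members and 9623 for genes passing the filter. Levels were not matched, so the shares are not strictly alike. Single members varied a little more than other genes, with a median SD of 0.19 log2 units over aggressive cortex against 0.15 for all genes passing the filter.

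The members and the 200 most negative genes were found on opposite sides in ordinary libraries as well. Of 12 aggressive cortex libraries, 12 had a median of the members and a median of the negative genes of opposite sign relative to the aggressive mean. In ID238 and ID239 the negative genes stood at only 0.00011 and 0.00064, so the sign there rests on values near 0. Signs were not counted for other sets of genes. The members were highest in ID233, at 0.19, where the negative genes stood at -0.20, and lowest in ID229, at -0.22, where the negative genes stood at 0.21. The signs were opposite in 9 of 12 aggressive and 8 of 10 tame forebrain libraries, and in 4 of the 7 other tame cortex libraries. Both values are shares of the same total, and the size of the opposition in aggressive cortex was small beside that in ID187, where the medians were 1.21 and -4.16.

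**Figure D4:**
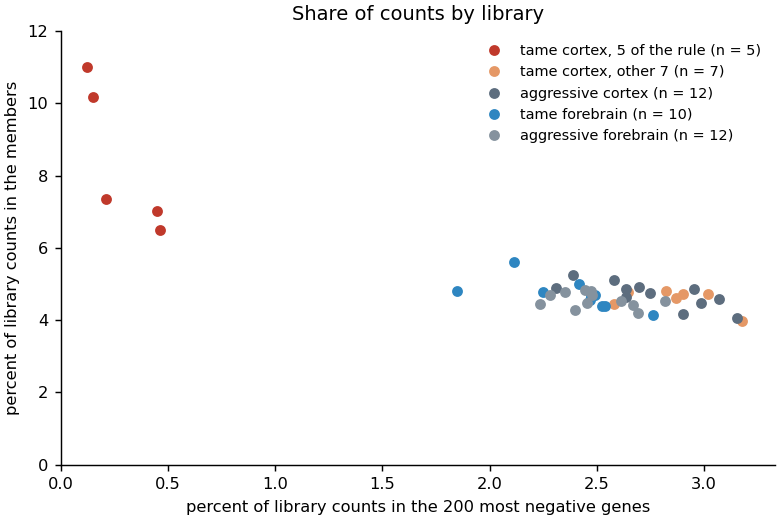
Percent of library counts in the 200 members (y axis) against percent in the 200 most negative genes (x axis), 1 point per library. The 5 libraries of the rule lie apart, with 6.49% to 10.997% in members and 0.121% to 0.463% in the negative genes, while the other 41 libraries lie between 3.97% and 5.61% and between 1.85% and 3.18%.

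The forebrain libraries were not used by the rule, so the line difference there is a separate measurement. All 200 members passed the low-count filter in the forebrain. None was called between tame and aggressive foxes (0 higher and 0 lower; edgeR quasi-likelihood test, adjusted p under 0.05; smallest adjusted p among members 0.213), where 0.0697% of all 12915 genes were called higher and 0.0232% lower. At an unadjusted p under 0.05, 13 members were higher and 2 lower in tame foxes, against 5.74% and 5.80% of all genes. Single libraries moved the first count, to 32 without tame library ID541 (8.0% of all genes), 21 without ID492 (6.89%), 8 without ID483 (3.80%) and 8 without ID485 (3.97%). DESeq2 called 0 members higher and 1 lower, against 0.179% and 0.226% of all genes. At an unadjusted p under 0.05 it had 17 higher and 3 lower, against 6.08% and 6.13%. Limma-voom with quality weights called 0 in either direction, against 0.0542% and 0.0465%. At an unadjusted p under 0.05 it had 11 higher and 4 lower, against 4.55% and 4.12%.

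Small positive values were nevertheless more frequent than negative ones. Log2 fold changes of the members, tame over aggressive, had a median of 0.085 and ran from -0.88 to 1.18, and 145 of 200 (72.5%) were above 0. Over all genes tested the median was 0.0099 and 52.8% were above 0, and among the 200 most negative genes 50 were. Single libraries moved the value, and the median was 0.054 without tame library ID485 and 0.054 without ID483. The median member stood 0.29 above the aggressive forebrain mean in ID485, 0.19 in ID486 and 0.14 in ID483, and between -0.092 and 0.065 in the other 7 tame libraries. In ID485, 85 members exceeded the highest aggressive forebrain library, in ID483 73 and in ID486 50, whereas 15.6%, 20.6% and 9.17% of all genes passing the filter did so. ID483 also had the widest spread of members, with the lowest 5% at -1.60 or below.

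Forebrain libraries with the same last digits as the 5 cortex libraries did not stand out as a set, although ID486 was high among tame forebrain. Their medians were -0.013 in ID482, 0.19 in ID486, -0.043 in ID487 and 0.051 in ID491, and ID490 was not analysed here. The 5 tame forebrain libraries matching other tame cortex libraries ran from -0.043 to 0.29, which covers all 4 values. The cortex libraries ID187 and ID191 with the highest shares of members were thus matched by forebrain libraries close to the aggressive mean. Whether these libraries came from the same foxes is not stated.

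Among single members in the forebrain, those with the smallest p-values show the size of what was seen. ENSCAFG00000018942 ran from 90.2 to 241 CPM in tame (median 144) and from 71.3 to 152 CPM in aggressive foxes (median 104). Most tame libraries were higher, 9 of 10 above the aggressive median, but the ranges overlapped. The log2 change came to 0.56 (SE 0.16, edgeR adjusted p = 0.234). ENSCAFG00000006006, an abundant member, ran from 1063 to 1915 CPM in tame (median 1319) and from 1049 to 1330 CPM in aggressive forebrain (median 1225). The fitted log2 change was 0.23 (SE 0.079, edgeR adjusted p = 0.323). Again the ranges overlapped while 9 of 10 tame values exceeded the aggressive median.

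ENSCAFG00000010521 went the other way. Tame forebrain ran from 6.79 to 17.7 CPM (median 11.3) and aggressive forebrain from 8.14 to 31.8 CPM (median 24.5). None of the 10 tame libraries lay above the aggressive median, although the ranges overlapped. The fitted log2 change was -0.88 (SE 0.23, edgeR adjusted p = 0.213), while the DESeq2 test returned an adjusted p of 0.0429. In the cortex this member stood at 83.2 CPM in ID187, 37.0 in ID191, 28.0 in ID190, 25.2 in ID186 and 20.02 in ID182, while the 7 other tame libraries ran from 10.5 to 34.6 CPM. Aggressive cortex ran from 13.3 to 53.9 CPM with a median of 35.2, so only ID187 lay above that range. ENSCAFG00000017553 ran from 17.4 to 45.5 CPM in tame and from 26.3 to 60.8 CPM in aggressive forebrain. The log2 change came to -0.36 (SE 0.16, edgeR adjusted p = 0.393), and 2 of 10 tame values exceeded the aggressive median.

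The difference between regions was measured in aggressive foxes, 12 forebrain against 12 cortex libraries, over 12641 genes of both tables. Of the 200 members, 110 (55.0%) were lower in the forebrain and 46 (23.0%) higher at an edgeR adjusted p under 0.05, and 44 were not called. Among all genes tested 32.6% were lower and 35.9% higher, and among genes passing the level filter 38.5% and 31.4%. The median log2 fold change, forebrain over cortex, was -0.24 for members and -0.030 for genes passing the filter. Upper-quartile scaling gave -0.15 for members, with 94 lower (47.0%) and 54 higher (27.0%). In that setting 25.9% of all genes tested were lower and 44.5% higher, so the background moved as well. The 200 most negative genes had 103 lower and 36 higher with a median of -0.18, so a lower forebrain level was found at both ends of the distribution. Region and count table coincide in this comparison and cannot be told apart.

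The region contrast was also read by broad class of level. The level was that in aggressive cortex, which also enters this contrast, so more lower genes in the upper class partly follow from the split. Of 95 members over 100 CPM in aggressive cortex, 69.5% were lower in the forebrain, against 58.7% of 2500 genes at that level. Of the 105 others 41.9% were lower, against 31.4% of 7123 genes. The shares of higher genes were 12.6% against 19.2% in the upper class and 32.4% against 35.7% in the lower one. The members had a larger share of lower genes than the background in both classes, but levels within a class were not matched. Large region differences occurred in both directions, with 26 members (13%) more than 1 log2 unit lower, against 6.54% of genes passing the filter, and 13 (6.5%) more than 1 higher, against 2.60%. The extremes were -3.18 and 1.83.

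In aggressive foxes, all forebrain libraries were below all cortex libraries in 30 members (15.0%), against 9.32% of genes passing the filter. The reverse held for 20 members (10%), against 12.3%.

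ENSCAFG00000009526 was the member most clearly lower in the forebrain by p-value. It ran from 16.9 to 27.0 CPM in aggressive forebrain (median 19.7) and from 36.8 to 49.4 CPM in aggressive cortex (median 44.4), without overlap. The fitted log2 change was -1.26 (SE 0.074, edgeR adjusted p = 8.48e-14). Tame forebrain was alike, at 18.6 to 26.8 CPM, and the 5 tame cortex libraries ran from 68.0 to 92.1 CPM. ENSCAFG00000008431 ran from 113 to 170 CPM in aggressive forebrain (median 123) and from 213 to 271 CPM in aggressive cortex (median 238.5). The log2 change came to -1.07 (SE 0.063, edgeR adjusted p = 9.72e-14). Its counts equal those of another gene, so the gene behind them is uncertain.

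ENSCAFG00000014610 was higher in the forebrain. It ran from 143 to 277 CPM in aggressive forebrain (median 217) and from 58.8 to 74.95 CPM in aggressive cortex (median 69.0), again without overlap. The fitted log2 change was 1.51 (SE 0.082, edgeR adjusted p = 2.55e-14). In the tame cortex it stood at 178 CPM in ID191, 167 in ID187, 127 in ID182, 97.1 in ID186 and 94.3 in ID190, while the 7 others ran from 57.0 to 81.2 CPM. All 5 values were above the aggressive cortex range, and those of ID191 and ID187 lay inside the aggressive forebrain range. ENSCAFG00000014054 ran from 163 to 398 CPM in aggressive forebrain (median 288) and from 71.3 to 95.1 CPM in aggressive cortex (median 82.1). The log2 change came to 1.62 (SE 0.12, edgeR adjusted p = 1.43e-11).

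**Figure D5:**
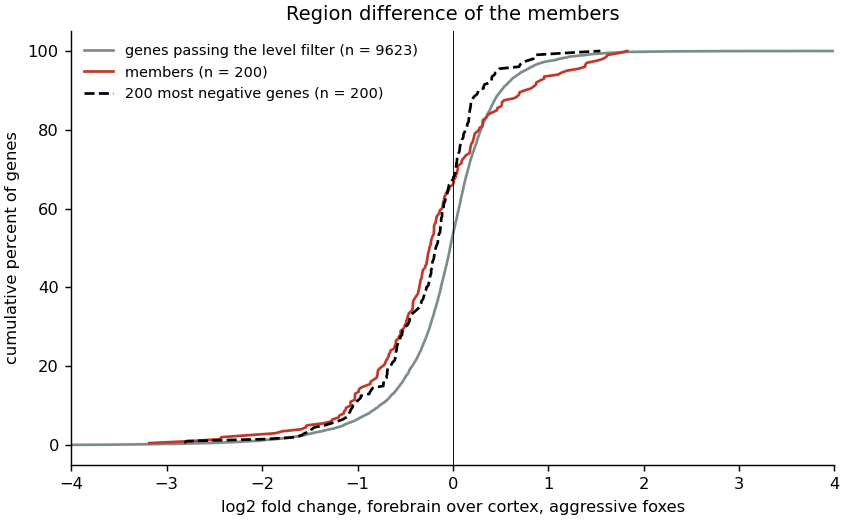
Cumulative percent of genes (y axis) by log2 fold change of forebrain over cortex in aggressive foxes (x axis) for the 200 members, the 200 most negative genes and all genes passing the level filter. The members' median is -0.24 against -0.030 for all genes passing the filter, and their right tail reaches 1.83.

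The members split by region call differed in level and in how they varied together. The 110 members lower in the forebrain had a median of 127 CPM in aggressive cortex, the 46 higher ones 47.4 CPM and the 44 others 61.3 CPM. The difference that chose the members was alike in the 3 classes, with medians of 0.83, 0.84 and 0.83. All 5 libraries were above all 7 others in 99 of the 110, 29 of the 46 and 28 of the 44. The rule used this contrast, and 21.8% of all genes passing the filter had the same separation. That share was not split by region call, and the part of level in these counts was not tested. Median pairwise correlations over aggressive cortex were 0.420, 0.227 and 0.406, and over aggressive forebrain 0.366, 0.0913 and 0.168. The forebrain line difference had medians of 0.059, 0.11 and 0.12, above 0 in 79, 35 and 31 members. The classes come from the region test on aggressive libraries, and the correlations use those libraries too, so they are given as values only.

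The line difference in the cortex holds the libraries that chose the members, so it is given as a description. Of 200 members, 1 was called higher in tame cortex and 0 lower (edgeR adjusted p under 0.05), against 0.338% and 0.0945% of all 12705 genes. At an unadjusted p under 0.05, 166 were higher and 0 lower, against 27.7% and 6.92%. Log2 fold changes had a median of 0.54 and were above 0 in all members but 1, ENSCAFG00000010521 at -0.16. The called member was 1 of the 43 genes higher in tame cortex. DESeq2 called 36 members higher and 0 lower, against 4.65% and 0.756% of all genes. At an unadjusted p under 0.05 it had 172 higher and 0 lower, against 28.8% and 9.34%. Limma-voom with quality weights, which gives libraries far from their group less weight, did not show the same balance. Its median was 0.015, and it called 1 higher and 2 lower, against 0.771% and 0.512%. At an unadjusted p under 0.05 it had 7 higher and 11 lower, against 5.96% and 4.96%.

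The called member was ENSCAFG00000028848. It stood at 23.1 to 46.1 CPM in the 5 libraries (median 35.3), at 12.7 to 23.2 CPM in the 7 other tame libraries (median 20.1) and at 9.43 to 20.04 CPM in aggressive cortex (median 13.9). Unlike most members, its 7 other tame libraries were also mostly high, with the aggressive median exceeded in 11 of 12 tame libraries. The fitted log2 change was 0.98 (SE 0.23, edgeR adjusted p = 0.0464), and the call was lost in 18 of 24 fits that left out 1 library. ENSCAFG00000028636 was next, at 27.1 to 49.3 CPM in the 5 libraries, 12.3 to 37.6 CPM in the 7 others and 10.5 to 25.4 CPM in aggressive cortex. The log2 change came to 0.93 (SE 0.22, edgeR adjusted p = 0.0569). In the forebrain it varied far more, from 7.48 to 178 CPM in tame and from 5.22 to 97.8 CPM in aggressive libraries.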

How the data were processed

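The authors deposited 1 table per region of estimated counts per dog Ensembl gene; that they are unscaled was read from the values, whose totals differ between libraries. The submitters' processing notes name CASAVA 1.8.2, FastQC, Trimmomatic, BWA, bedtools, edgeR and the build canFam3; how reads were counted is not given in the sources used here. Fractions made up 4.36% of cortex and 4.43% of forebrain values. CPM used deposited column totals, and log2 values a pseudocount of 1 CPM.

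For tests, counts were rounded, filtered with filterByExpr (minimum count 10), scaled by TMM and fitted across all genes with edgeR 4.0.16 (quasi-likelihood F-test, robust, R 4.3.3), with line or region as the single term and Benjamini-Hochberg adjustment (threshold 0.05). SE is the log2 fold change divided by the root of F. The forebrain and region fits were checked on simulated counts without shifted libraries, and the cortex fit was not checked in this way. Alternatives were size factors, upper-quartile scaling, no filter, DESeq2 1.42.0, limma-voom (limma 3.58.1) with quality weights, a block over libraries sharing their last digits, and leaving out each library.

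The members, gene lists and tests were chosen with earlier results of these data known. Cell type and pathway lists need gene names and could not be used. Without names, at most 2 members higher and 2 lower are given per comparison, by p-value, and the 2 largest differences for the rule.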

Additional observations from a re-analysis of the deposited data

Results flagged for a closer look

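In the 10 tame forebrain libraries, 17 values were checked for a library far from the others, and 5 were flagged. About 0.85 would be flagged by chance if the values were normal and independent. Some CPM values are skewed and all come from the same libraries, so that number is a rough guide only. Of the 5, 4 concern library ID483 and are not independent. The lowest 5% of members lay at -1.60 log2 units or below relative to aggressive forebrain in ID483, where the next library stood at -0.67. ENSCAFG00000028636 stood at 178 CPM in ID483, against 62.3 CPM in the next tame library. ENSCAFG00000028848 stood at 27.4 CPM in ID483, against 15.2 CPM in the next. ENSCAFG00000008431 stood at 81.8 CPM in ID483, against 131 CPM in the next lowest. ENSCAFG00000014610 stood at 326 CPM in ID482, against 248 CPM in the next. The causes were not tested.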

How the results depend on the processing

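The list of members depended most on how libraries were averaged. With medians in place of means, 68 of the 200 genes were chosen again, and 166 genes lie just under the limit. Other pseudocounts, level filters and TMM sizes kept 163 to 197, and leaving out 1 of the 12 tame cortex libraries kept at least 134 (for the 7 others and for TMM, a choice made after the data were seen). In the forebrain, DESeq2 called 1 member lower (0.226% of all genes) against 0 (0.0232%). Region counts moved by less than 1.5 times under each alternative. Over 11 aggressive pairs sharing their last digits, the replicate block gave 44 higher and 112 lower (36.5% and 33.1% of all genes). Without the block the counts were 44 and 104 (35.5% and 31.9% of all genes). The correlation of deviations within a pair ran from 0.0287 to 0.29 and was over 0.1 in 10 of the 11. Libraries with different last digits were not compared in this way. Whether the digits pair the libraries was therefore not settled, and the main region test has no pairing term. In the cortex line comparison, 1 member was called higher (0.338% of all genes). The number was 2 with upper-quartile scaling (0.575% of all genes) and 36 with DESeq2 (4.65%). It was 0 to 6 when 1 library was left out. The 6 came without ID181, where 0.933% of all genes were called higher, and without ID186 it was 0 (0.133%). Limma-voom with quality weights called 2 lower (0.512% of all genes) against 0 (0.0945%). Its median log2 fold change was 0.015 against 0.54, with 113 members above 0. The cause was not tested. ENSCAFG00000028848 lost its cortex call in 18 fits without 1 library. All 200 members passed the low-count filter in both regions.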
